A study of Mus musculus with 9 samples.

Results

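Interferon-stimulated genes, which cells switch on after an interferon binds its receptor, were compared between unstimulated wild-type (WT) and Δ*Gnas* dendritic cells (DCs). A list of 45 symbols was matched to the gene names of the expression table, and all 45 were found among its 30593 genes. By role the list held 4 RNA sensors, 3 transcription factors, 3 IFIT proteins, 6 genes of the OAS and PKR group, 6 genes of the MX, viperin and other effector group, 5 membrane restriction factors, 5 genes of the ISG15 system with its ubiquitin ligases, 3 genes of the PARP and DTX3L group, 5 interferon-inducible GTPases and 5 other induced genes. Both genotypes were untreated, so the values are basal levels and not a response to added interferon.

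DCs were grown for 6 days with GM-CSF from the bone marrow of C57BL/6J mice and enriched on beads for CD11c, and they received no treatment. In Δ*Gnas* mice, floxed *Gnas*, which encodes the G protein subunit that stimulates cAMP synthesis, is deleted by a Cre under the CD11c promoter, and the study describes this Cre as leaky. RNA-Seq covered WT replicates 3 to 7 and Δ*Gnas* replicates 3, 4, 6 and 7, which the study calls biological replicates. WT replicates 3 and 4 and Δ*Gnas* replicates 3 and 4 are labelled male and the other 5 libraries female. Ages, and whether WT mice carried the floxed allele or the Cre, are not given in the sources used here.

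Type I interferons signal through the receptor chains IFNAR1 and IFNAR2 and the kinases JAK1 and TYK2 to a complex of STAT proteins with IRF9. This complex binds the interferon-stimulated response element, a repeat of GAAA, in the promoters of its targets. Many of the targets restrict viruses, and others, such as *Irf7* and the RNA sensors, raise the cell's capacity to make more interferon. DCs, and plasmacytoid DCs above all, are known as producers of type I interferon.

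The values are transcript abundances scaled for length and to the library's total (TPM), and estimated counts, which summed to 34252701 to 49427934 per library. *Gnas* was at 404 to 532 TPM in WT and 48.0 to 63.6 TPM in Δ*Gnas* DCs. Of 9 DC markers, *Cd74*, the MHC class II invariant chain, was at 9128 TPM or more in all 9 libraries. *Flt3* was at 2.65 to 11.7 TPM. In Δ*Gnas* DCs 2 of the 9 were higher (*Itgax*, *H2-Ab1*) and 2 lower (*Zbtb46*, *Cd86*), and none was called without Δ*Gnas* replicate 7. *Ccr7* fell most (log2 fold change -1.43) and was not called. Of 23 alternative settings, 18 called *Itgax*, 5 *H2-Ab1*, 18 *Zbtb46*, 12 *Cd86* and 9 *Ccr7*. Marker lists of T, B, NK, erythroid and stromal cells summed to at most 8.97 TPM in any library, and 1 of 2 tested T cell markers was higher in Δ*Gnas* DCs. Mast cell and basophil markers, with 1 tested and not called, summed to 0.536 to 1.90 TPM in WT and 1.56 to 9.23 TPM in Δ*Gnas* libraries. Neutrophil markers, none of 5 tested being called, summed to 92.6 to 296 TPM in WT and 148 to 936 TPM in Δ*Gnas* libraries, and monocyte markers, with *Chil3* alone of 5 higher, to 185 to 641 TPM and 431 to 611 TPM. WT replicate 3 stood apart by a mitochondrial share of 1.39% of TPM (5.85 to 8.54% in the others), and its TPM was the highest of the 9 for 40.2% of all tested genes. The TPM of WT replicate 7 was the lowest of the 9 for 4827 of the 11865 tested genes. WT replicate 7, labelled female, had 21.3 TPM of the Y-linked *Ddx3y*, against 23.9 to 41.9 TPM in the libraries labelled male. Of all genes, 11865 passed the filter of over 1 CPM (counts scaled to the library's total) in at least 3 libraries and were tested with edgeR's quasi-likelihood test. Changed here means a Benjamini-Hochberg adjusted p under 0.05 over these genes.

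Few interferon-stimulated genes passed the test between WT and Δ*Gnas* DCs. Of the 44 that were tested, 1 was higher in Δ*Gnas* DCs, *Samd9l*, and 2 were lower, *Trim25* and *Mx2*. Over all genes tested, 5.39% were higher and 4.14% lower, so these counts are close to the background. At an unadjusted p under 0.05 the counts were 10 higher and 3 lower, beside 12.6% and 11.1% of all genes. The log2 fold change was positive for 34 of the 44 and its median was 0.33, against -0.0043 over all genes. Without Δ*Gnas* replicate 7 the median was 0.05 and 25 of 44 were positive, whereas leaving out any other library gave medians of 0.30 to 0.51. The calls without it were again 1 higher and 2 lower, beside 2.54% and 1.87% of all genes, 4.4% together. DESeq2 called 4 higher, *Ifit1*, *Ifit2*, *Isg20* and *Samd9l*, and 2 lower, beside 8.03% and 6.9% of all genes. The remaining gene, the GTPase *Iigp1*, did not pass the filter, at 0.0506 to 0.283 TPM in WT and 0.166 to 1.001 TPM in Δ*Gnas* DCs. In bulk libraries, fewer cells that express a gene and less of its RNA per cell cannot be told apart.

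**Figure D1:**
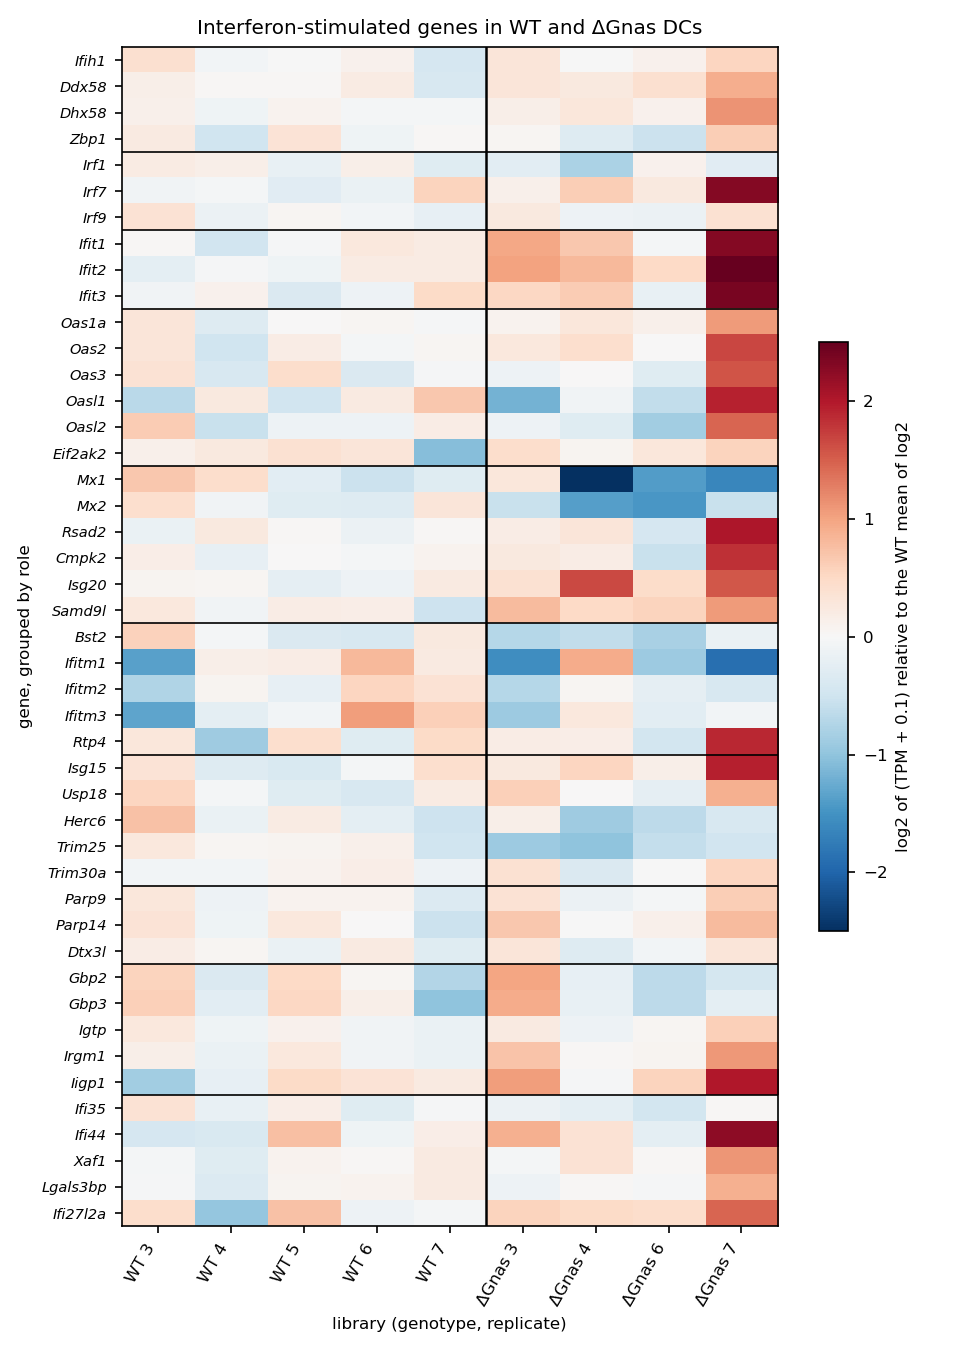
Level of the 45 genes in each library (columns), as log2 of TPM + 0.1 minus the mean of that value over the 5 WT libraries, with genes in rows grouped by role and colours ending at 2.5 in either direction. The column of ΔGnas replicate 7 is the darkest red, with a median of 0.88 over the 44 tested genes, against -0.10 to 0.24 in the other 3 ΔGnas libraries.

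Δ*Gnas* replicate 7 had the highest TPM of the 9 libraries for 31 of the 44 genes, 70.5%, against 9.03% of all tested genes. On the scale of log2(TPM + 0.1) relative to the WT mean, the median of the 44 genes was 0.88 in this library, between -0.10 and 0.24 in the other Δ*Gnas* libraries and between -0.11 and 0.24 in the WT libraries. Over all tested genes the same median was -0.05 in Δ*Gnas* replicate 7. It had 43264924 estimated counts and a mitochondrial share of 6.72%, both within the range of the other libraries. The library was singled out after its values were seen, so these counts are a description with no test.

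In Δ*Gnas* replicate 7, 12 genes were over 2-fold above every other library, and in no other library was any of the 44 genes so far above the rest. Among all tested genes 27 had this pattern in Δ*Gnas* replicate 7, 0.228%, and besides the 12 they included 5 genes from a second list of interferon-induced genes and 10 genes from neither list. The 12 ran from *Ifit3*, at 3.37 times the next library, over *Rsad2* (3.33), *Irf7* (3.20), *Cmpk2* (3.08), *Ifit2* (3.02), *Rtp4* (2.67), *Isg15* (2.66), *Ifi44* (2.63), *Ifit1* (2.55), *Oasl1* (2.42) and *Oas2* (2.40) to *Oas3* (2.23). *Dhx58*, at 1.80, was the first outside. None of the 12 was called between genotypes by edgeR's quasi-likelihood test (lowest adjusted p = 0.0576, for *Ifit2*). Their median log2 fold change was 0.88 with all libraries and 0.24 without Δ*Gnas* replicate 7. Without it single genes ran from -0.71 for *Oasl1* to 0.77 for *Ifit2*. The 12 were picked by their excess in Δ*Gnas* replicate 7, so a lower median without it follows from the choice.

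*Ifit3* shows the pattern. This gene of the IFIT group was at 4.06, 4.69, 3.36, 3.95 and 6.11 TPM in WT replicates 3 to 7 and at 6.22, 6.75, 3.82 and 22.8 TPM in Δ*Gnas* replicates 3, 4, 6 and 7. Δ*Gnas* replicates 3 and 4 lay slightly above the highest WT library, Δ*Gnas* replicate 6 among the WT libraries and Δ*Gnas* replicate 7 far above all. *Irf7*, the factor that drives interferon alpha genes, was at 9.27, 9.53, 8.04, 8.77 and 14.5 TPM in WT and at 10.7, 15.1, 11.6 and 48.3 TPM in Δ*Gnas* DCs. *Rsad2* encodes viperin, an enzyme that makes a chain-terminating nucleotide, and was at 4.81, 6.44, 5.52, 4.87 and 5.51 TPM in WT and 6.17, 6.64, 4.00 and 22.1 TPM in Δ*Gnas* DCs. For *Rsad2* the lowest of the 9 values and the highest both lay in the Δ*Gnas* group.

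The ubiquitin-like modifier *Isg15* was at 14.2, 8.94, 8.63, 10.9 and 15.1 TPM in WT and 13.4, 16.3, 12.4 and 43.4 TPM in Δ*Gnas* DCs. The next highest libraries were Δ*Gnas* replicate 4 and WT replicate 7, which lay close together. *Cmpk2*, the mitochondrial nucleotide kinase whose gene neighbours *Rsad2*, was at 1.70 to 2.25 TPM in WT, at 1.31 to 2.36 TPM in Δ*Gnas* replicates 3, 4 and 6 and at 7.27 TPM in Δ*Gnas* replicate 7. *Oasl1*, known in mouse as a repressor of *Irf7* translation, was at 2.05, 3.98, 2.38, 3.94 and 5.37 TPM in WT and 1.42, 3.14, 2.15 and 13.02 TPM in Δ*Gnas* DCs, so that without Δ*Gnas* replicate 7 its fold change turned from 0.45 to -0.71.

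**Figure D2:**
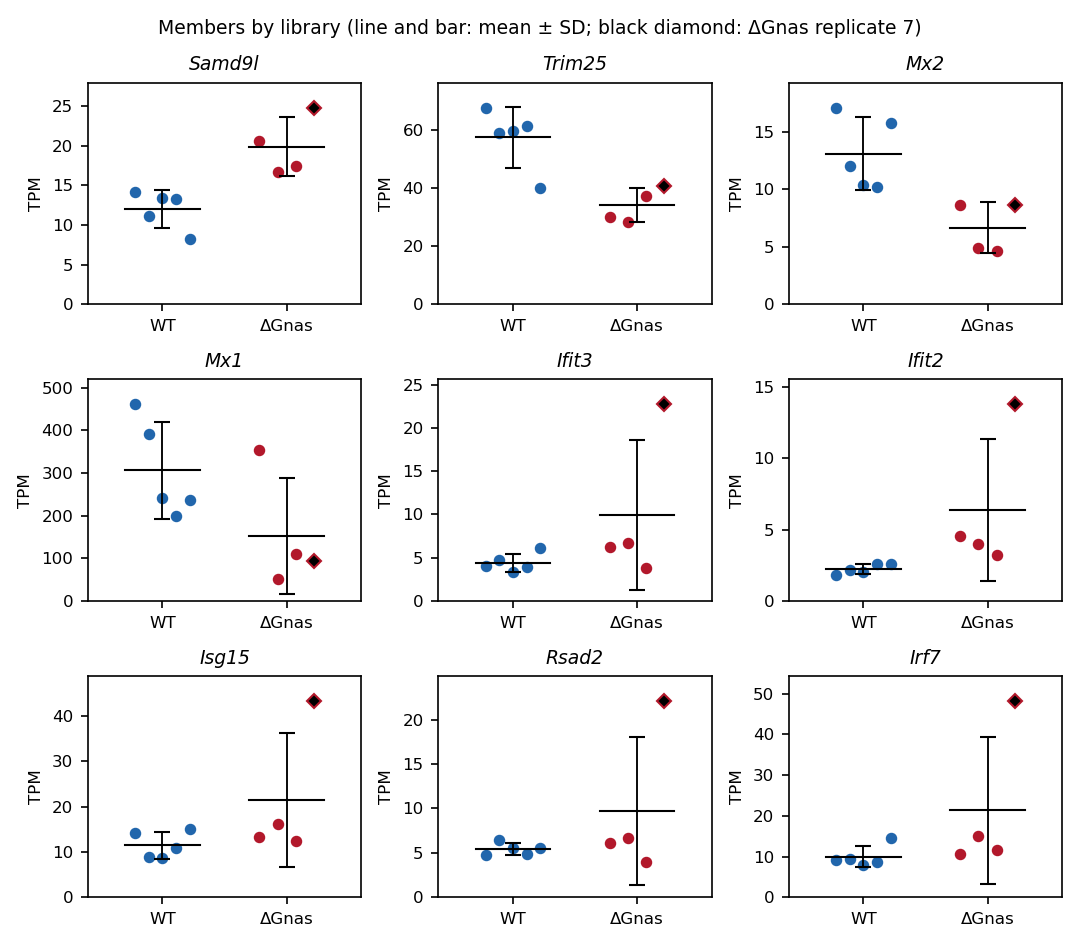
TPM of 9 interferon-stimulated genes in WT (blue, n = 5) and ΔGnas (red, n = 4) libraries, each point a library, with the mean as a line and the SD as a bar, and ΔGnas replicate 7 as a black diamond. Samd9l, Trim25 and Mx2 differ between genotypes whether or not ΔGnas replicate 7 is counted, whereas in Ifit3, Ifit2, Isg15, Rsad2 and Irf7 that library sits far above the rest.

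The promoters of 5 of these 12 genes carry the core of the response element in the RefSeq windows (GRCm38.p6) of 250 bases before to 50 bases after the start of the gene. They are printed here since these genes share the excess in Δ*Gnas* replicate 7. The letters run along the gene's own strand, and capitals mark the core, GAAA-NN-GAAA on either strand (on the opposite strand it reads TTTC-NN-TTTC).
Ifit1 (chr19:34640639-34640938, plus strand): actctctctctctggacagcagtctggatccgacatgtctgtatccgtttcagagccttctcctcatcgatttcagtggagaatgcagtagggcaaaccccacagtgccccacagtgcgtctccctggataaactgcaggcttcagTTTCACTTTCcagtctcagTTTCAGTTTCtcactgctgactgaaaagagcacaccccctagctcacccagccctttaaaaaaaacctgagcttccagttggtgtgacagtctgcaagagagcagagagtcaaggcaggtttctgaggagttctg
Ifit3 (chr19:34583279-34583578, plus strand): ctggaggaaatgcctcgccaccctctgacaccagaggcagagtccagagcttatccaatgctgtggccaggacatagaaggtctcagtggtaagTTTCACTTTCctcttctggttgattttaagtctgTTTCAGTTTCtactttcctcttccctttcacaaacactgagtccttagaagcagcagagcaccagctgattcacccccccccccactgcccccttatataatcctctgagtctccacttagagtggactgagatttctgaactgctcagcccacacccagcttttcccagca
Isg15 (chr4:156200769-156201068, minus strand): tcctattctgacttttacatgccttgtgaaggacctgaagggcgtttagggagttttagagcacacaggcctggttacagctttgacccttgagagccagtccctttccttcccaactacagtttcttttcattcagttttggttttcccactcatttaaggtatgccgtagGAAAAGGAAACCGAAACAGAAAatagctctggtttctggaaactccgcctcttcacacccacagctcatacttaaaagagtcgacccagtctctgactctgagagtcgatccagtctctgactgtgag
Rsad2 (chr12:26456403-26456702, minus strand): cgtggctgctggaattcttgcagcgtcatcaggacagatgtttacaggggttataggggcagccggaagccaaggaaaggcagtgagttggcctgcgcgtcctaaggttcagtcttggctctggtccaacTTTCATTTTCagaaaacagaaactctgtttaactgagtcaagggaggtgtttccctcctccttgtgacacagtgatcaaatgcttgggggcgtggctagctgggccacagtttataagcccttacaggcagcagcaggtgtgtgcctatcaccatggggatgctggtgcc
Oas3 (chr5:120777610-120777909, minus strand): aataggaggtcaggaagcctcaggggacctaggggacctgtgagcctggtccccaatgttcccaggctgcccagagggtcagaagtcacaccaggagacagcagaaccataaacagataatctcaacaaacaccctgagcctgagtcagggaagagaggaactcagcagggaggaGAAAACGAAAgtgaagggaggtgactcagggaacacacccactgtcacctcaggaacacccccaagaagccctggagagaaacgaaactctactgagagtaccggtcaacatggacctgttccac

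In *Ifit1* the core was found on the opposite strand at 104 and 85 bases before the start and in *Ifit3* at 156 and 122 bases before it. *Isg15* held 3 overlapping copies between 78 and 57 bases before the start, the most of any listed gene with a window. Windows were given for 34 of the 45 genes, and 17 of them held the core, against 3.99% of 27025 genes with a window. With a C required after the core, the shares were 38.2% and 0.944%. The core was as frequent among the genes with the excess in Δ*Gnas* replicate 7 that have a window, 5 of 10, as among the others, 12 of 24. With the C required the shares were 30.0% and 41.7%, and the interferon gamma element described next was in 1 of 10 and 8 of 24. The interferon gamma element TTC-NNN-GAA, searched on both strands, was in 9 of 34 windows, 26.5%, against 9.55% of all genes, and 2 of the 9 matches overlapped a match to the core. A match describes letters in a window and is not shown to be bound here.

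**Figure D3:**
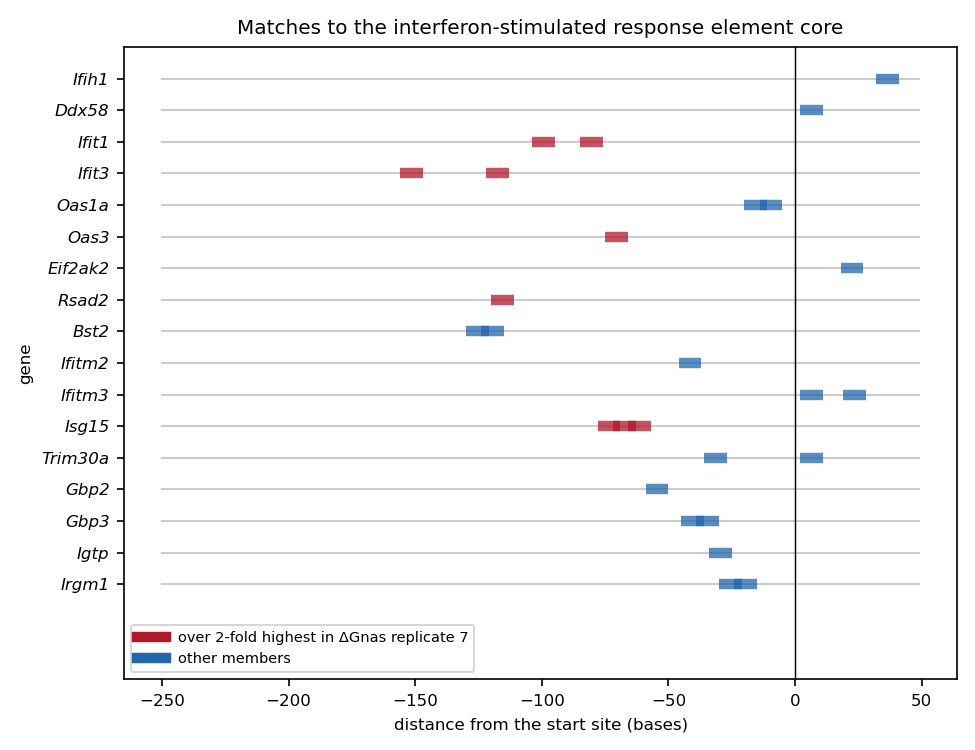
Position of the 27 matches to the GAAA-NN-GAAA core in the windows of the 17 genes that hold one (rows), in bases from the start site of the gene, with grey lines for the windows. Matches of genes over 2-fold highest in ΔGnas replicate 7 (red) and of the others (blue) both lie between 156 bases before and 41 bases after the start.

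*Samd9l*, *Trim25* and *Mx2* were the genes whose difference passed the test, and none of them had the excess in Δ*Gnas* replicate 7. *Samd9l* (chr6:3372257-3399572, GRCm38) encodes an inhibitor of translation and growth. It was at 14.1, 11.2, 13.4, 13.3 and 8.19 TPM in WT replicates 3 to 7 and at 20.6, 16.7, 17.5 and 24.8 TPM in Δ*Gnas* replicates 3, 4, 6 and 7. Every Δ*Gnas* library lay above every WT library. The means were 12.0 ± 2.41 TPM (SD, n = 5) and 19.9 ± 3.67 TPM (SD, n = 4), and in edgeR the change on the log2 scale was 0.75 with an SE of 0.14 (adjusted p = 0.0119). Samd9l was called in 23 of 23 alternative settings, and without Δ*Gnas* replicate 7 its change was 0.60 (adjusted p = 0.0311).

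*Trim25* (chr11:88999376-89020293) encodes the ubiquitin ligase known for activating RIG-I. It was at 67.6, 58.7, 59.4, 61.4 and 39.8 TPM in WT and 30.1, 28.2, 37.2 and 40.5 TPM in Δ*Gnas* DCs. WT replicate 7 and Δ*Gnas* replicate 7 thus overlapped in TPM, and after TMM scaling of the counts every Δ*Gnas* library lay below every WT library. In edgeR its log2 fold change was -0.73 (SE 0.14, adjusted p = 0.0119), it was called in 23 of 23 settings, and it was -0.84 without Δ*Gnas* replicate 7 (adjusted p = 0.0126).

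*Mx2* (chr16:97535308-97560900) belongs to the dynamin-like GTPases, and only its RNA is described here. It was at 17.1, 12.0, 10.3, 10.2 and 15.8 TPM in WT and 8.64, 4.88, 4.60 and 8.61 TPM in Δ*Gnas* DCs, with no overlap. The log2 fold change of Mx2 was -0.98 (SE 0.26, adjusted p = 0.0398). This call held in 16 of 23 settings. It was lost without WT replicate 3 (adjusted p = 0.0762), WT replicate 4 (0.0721) or WT replicate 7 (0.0686). Leaving out Δ*Gnas* replicate 4 (0.116) or Δ*Gnas* replicate 6 (0.106) also lost it, as did no filter (0.0536) and sex as a covariate (0.0541). That covariate took WT replicate 7 as female, as labelled, although this library had 21.3 TPM of the Y-linked *Ddx3y*. Macrophage markers, of which 5 of 8 tested were lower in Δ*Gnas* DCs, summed to 2756 to 3876 TPM in WT and 1258 to 1917 TPM in Δ*Gnas* libraries. Those lower were *C1qa*, *C1qb* and *C1qc* (log2 fold changes -2.22, -3.26 and -2.26), *Fcgr1* (-1.32) and *Mertk* (-0.63). *Adgre1* (0.01), *Csf1r* (0.02) and *Cd68* (0.45) were not called. The part of macrophages in the lower *Mx2* and *Trim25* was not tested.

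The windows of *Samd9l* and *Trim25* are printed for comparison with those above. They hold no match to GAAA-NN-GAAA, which says only that these letters are not in these windows.
Samd9l (chr6:3399522-3399821, minus strand): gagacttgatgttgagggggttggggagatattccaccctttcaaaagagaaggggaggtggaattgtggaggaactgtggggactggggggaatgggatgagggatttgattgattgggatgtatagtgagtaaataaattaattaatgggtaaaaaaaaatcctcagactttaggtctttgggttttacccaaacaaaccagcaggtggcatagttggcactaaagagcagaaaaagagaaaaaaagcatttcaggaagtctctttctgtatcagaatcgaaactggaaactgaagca
Trim25 (chr11:88999153-88999452, plus strand): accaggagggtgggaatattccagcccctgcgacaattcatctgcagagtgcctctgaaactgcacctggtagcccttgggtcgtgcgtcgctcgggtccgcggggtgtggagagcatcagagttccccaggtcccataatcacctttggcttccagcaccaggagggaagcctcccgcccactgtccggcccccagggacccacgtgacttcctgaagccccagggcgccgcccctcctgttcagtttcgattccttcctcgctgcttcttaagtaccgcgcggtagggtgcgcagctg

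By the count of genes whose libraries did not overlap after TMM scaling, *Ifit2* and *Samd9l* lay above WT in every Δ*Gnas* library, 2 of 44 beside 6.57% of all genes, and *Mx2* and *Trim25* lay below, 2 of 44 beside 5.38%.

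**Figure D4:**
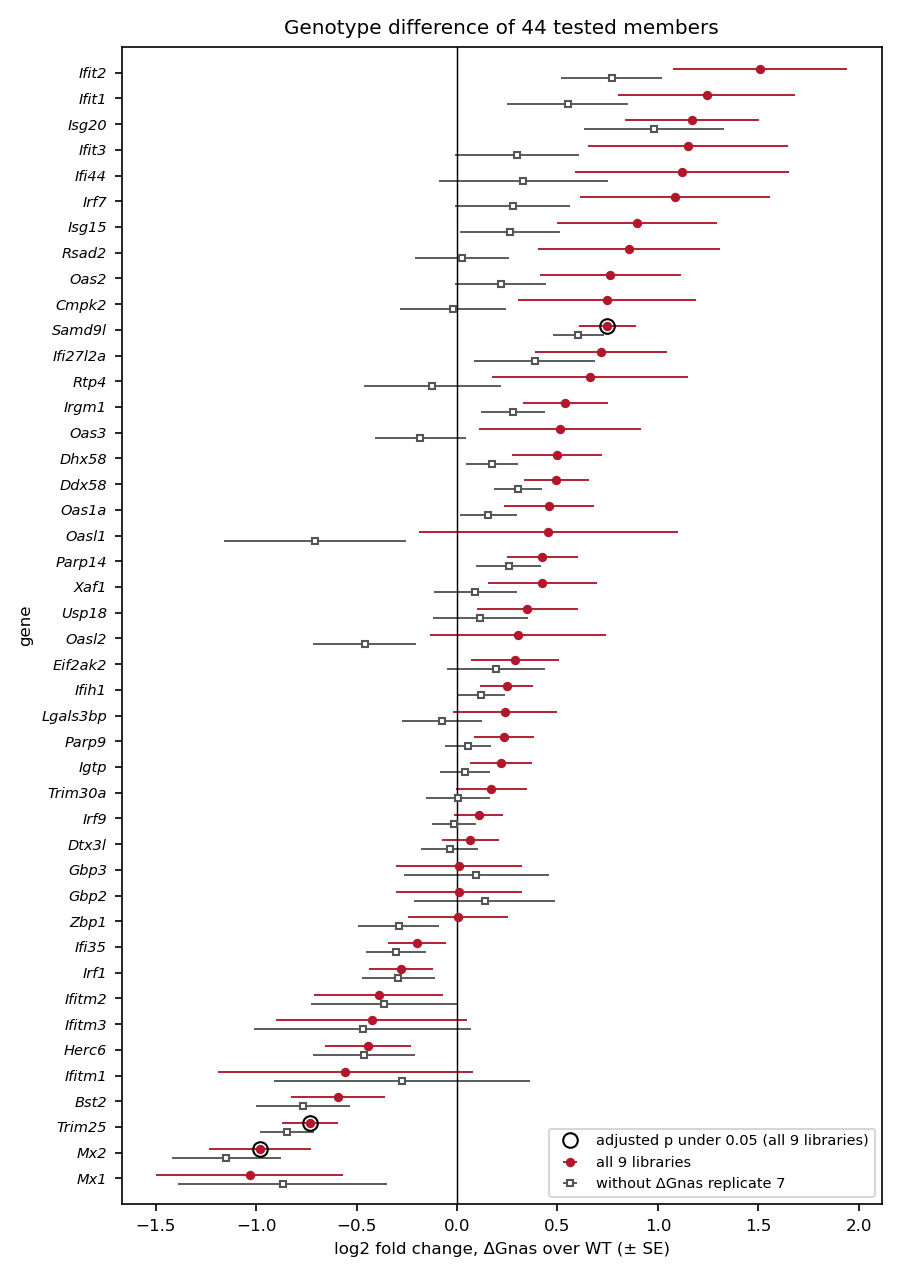
Log2 fold change, ΔGnas over WT (horizontal axis), of the 44 tested genes (rows, ordered by it) with its SE, from all 9 libraries (red circles) and without ΔGnas replicate 7 (open squares), with black rings around the 3 genes at an adjusted p under 0.05. The red circles lie right of 0 for 34 genes and the squares for 25.

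The 3 IFIT genes were among the 4 with the highest fold changes, and none of the 3 passed edgeR's quasi-likelihood test. *Ifit2* was at 1.85, 2.16, 2.05, 2.58 and 2.56 TPM in WT and 4.57, 3.98, 3.20 and 13.8 TPM in Δ*Gnas* DCs. Its Δ*Gnas* libraries all lay above WT. By that test the log2 fold change of Ifit2 was 1.51 (SE 0.43, adjusted p = 0.0576) with all libraries and 0.77 without Δ*Gnas* replicate 7 (adjusted p = 0.129). Of 22 settings, 6 called it, among them edgeR's exact test, which the study used (adjusted p = 0.0119), and DESeq2 (0.0066). *Ifit1* was at 2.04, 1.41, 1.94, 2.42 and 2.31 TPM in WT and 3.97, 3.22, 1.93 and 10.1 TPM in Δ*Gnas* DCs, where Δ*Gnas* replicate 6 lay among the WT libraries. Its log2 fold change was 1.24 (adjusted p = 0.114) and that of *Ifit3* 1.15 (adjusted p = 0.191). Kallisto splits reads between *Ifit1* or *Ifit3* and their near copies in the same cluster, which makes the division between them uncertain.

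Of the other effectors, *Isg20* had the largest fold change. This exonuclease was at 2.30, 2.28, 1.86, 1.99 and 2.59 TPM in WT and 2.88, 7.05, 3.05 and 6.63 TPM in Δ*Gnas* DCs, with the high values in Δ*Gnas* replicates 4 and 7. Its log2 fold change was 1.17 (SE 0.33, adjusted p = 0.0557), and 3 of 22 settings called it, namely edgeR's exact test, DESeq2 and the fit without Δ*Gnas* replicate 3. *Mx1* was at 461, 391, 242, 199 and 236 TPM in WT and 354, 50.7, 110.1 and 94.3 TPM in Δ*Gnas* DCs. Δ*Gnas* replicate 3 lay among the WT libraries and the other 3 Δ*Gnas* libraries lay below all of them. The log2 fold change was -1.03 (SE 0.47, adjusted p = 0.213), and without Δ*Gnas* replicate 3 it was -1.80 (adjusted p = 0.00748). C57BL/6 mice carry a defective *Mx1* allele that gives no functional protein, so only its RNA is described.

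The RNA sensors had the log2 fold changes 0.25 (*Ifih1*, MDA5), 0.49 (*Ddx58*, RIG-I), 0.50 (*Dhx58*, LGP2, their regulator) and 0.00 (*Zbp1*, a sensor of Z-form nucleic acid), and none of the 4 passed. *Ddx58* was closest, at 8.92 to 13.7 TPM in WT and 13.98 to 22.2 TPM in Δ*Gnas* DCs (adjusted p = 0.0895), with no overlap in TPM but some after TMM scaling. *Zbp1* lies 1.07 Mb from *Gnas* on chromosome 2 and was at 11.8 to 21.2 TPM in WT and 11.5 to 25.7 TPM in Δ*Gnas* DCs (adjusted p = 0.995). Of the transcription factors, *Irf7* was described above, *Irf9*, the DNA-binding partner of the STATs, had a log2 fold change of 0.11, and *Irf1*, a factor of the interferon gamma response, of -0.28 (49.0 to 69.7 TPM in WT, 35.0 to 65.3 TPM in Δ*Gnas* DCs, adjusted p = 0.333).

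The 6 genes of the OAS and PKR group were all positive, with a median log2 fold change of 0.46, and none passed. OAS enzymes make the messenger that activates RNase L, and *Eif2ak2* (PKR) halts translation on double-stranded RNA. *Oas1a* was the most abundant after length scaling, at 24.4 to 37.8 TPM in WT and 32.6 to 64.6 TPM in Δ*Gnas* DCs. Without Δ*Gnas* replicate 7 only 3 of the 6 were positive and the median was -0.01. *Eif2ak2* was at 12.5 to 14.9 TPM in 4 WT libraries and 5.40 TPM in WT replicate 7, and at 12.0 to 16.7 TPM in Δ*Gnas* DCs. *Oasl2* was at 12.5 to 28.8 TPM in WT, 10.1 to 16.9 TPM in Δ*Gnas* replicates 3, 4 and 6 and 50.7 TPM in Δ*Gnas* replicate 7. Reads of *Oas1a* may be shared with *Oas1g*, its near copy.

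*Bst2* and the 3 IFITM genes were among the 6 most abundant of the list. *Ifitm1*, which with *Ifitm2* and *Ifitm3* blocks fusion of viruses in endosomes or at the cell surface, was at 339, 967, 990.1, 1522 and 1025 TPM in WT and 296, 1649, 466 and 235 TPM in Δ*Gnas* DCs. Δ*Gnas* replicate 4 had the highest and Δ*Gnas* replicate 7 the lowest of the 9 values. *Ifitm3* was at 132, 275, 312, 676 and 492 TPM in WT and 175, 396, 273 and 311 TPM in Δ*Gnas* DCs. *Ifitm2* was at 209.6, 367, 306, 509 and 451 TPM in WT and 214, 365, 303 and 267 TPM in Δ*Gnas* DCs.

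All 3 IFITM genes overlapped between genotypes, with log2 fold changes of -0.56, -0.43 and -0.39 and adjusted p-values of 0.646, 0.640 and 0.510. Their lowest WT value was each time in replicate 3. *Bst2*, or tetherin, which holds budding virions at the surface, was at 407, 264, 213, 206 and 323 TPM in WT and 167, 177, 155 and 243 TPM in Δ*Gnas* DCs. Δ*Gnas* replicate 7 lay among the WT libraries and the other Δ*Gnas* libraries below them (log2 fold change -0.59, SE 0.23, adjusted p = 0.155). *Bst2* and the IFITM genes were not highest in Δ*Gnas* replicate 7, whereas *Rtp4*, a chaperone of membrane receptors, had the excess there, at 4.64 to 12.0 TPM in WT, 6.25 to 9.83 TPM in Δ*Gnas* replicates 3, 4 and 6 and 32.2 TPM in Δ*Gnas* replicate 7.

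The ISG15 system showed no shared direction. *Usp18*, the protease that removes ISG15 and dampens the receptor, had a log2 fold change of 0.35 and the ligase *Herc6* of -0.44, beside 0.90 for *Isg15* itself. *Herc6*, known in mouse as the main ligase for ISG15, was at 8.29 to 20.1 TPM in WT and 6.41 to 13.3 TPM in Δ*Gnas* DCs (adjusted p = 0.241). The log2 fold change of *Trim30a* was 0.17. *Parp9*, *Parp14* and *Dtx3l*, which act together in ADP-ribosylation and ubiquitination, had changes of 0.23, 0.42 and 0.07, and none passed.

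The interferon-inducible GTPases that defend against intracellular pathogens showed 0.01 for both *Gbp2* and *Gbp3*, 0.22 for *Igtp* and 0.54 for *Irgm1* (adjusted p = 0.152). *Gbp2* varied within both genotypes, from 43.8 to 107 TPM in WT and from 46.1 to 145 TPM in Δ*Gnas* DCs, with its highest value in Δ*Gnas* replicate 3. *Gbp3* followed it, at 17.4 to 52.5 TPM and 22.1 to 66.6 TPM, and the pair may share reads. Δ*Gnas* replicate 7 lay within the range of the other libraries for both GBP genes, at 53.8 and 29.3 TPM. It was highest for *Igtp*, at 11.7 TPM, and *Irgm1*, at 35.6 TPM.

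Of the other induced genes, *Ifi27l2a*, a small hydrophobic protein, was the most abundant, at 215, 80.9, 262, 145 and 152 TPM in WT and 234, 221, 216 and 434 TPM in Δ*Gnas* DCs. WT replicate 5 lay above 3 of the 4 Δ*Gnas* libraries, and the log2 fold change was 0.72 (SE 0.33, adjusted p = 0.219). *Lgals3bp*, a secreted glycoprotein, was at 99.8 to 148 TPM in WT, 116 to 130.4 TPM in Δ*Gnas* replicates 3, 4 and 6 and 235 TPM in Δ*Gnas* replicate 7. *Xaf1*, *Ifi44* and *Ifi35* had log2 fold changes of 0.42, 1.12 and -0.20, and none passed.

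The interferons themselves were near the limit of detection. Of 20 interferon genes of the types alpha, beta, epsilon, kappa, gamma and lambda, 15 were at 0 TPM in all 9 libraries, and the highest value of any was 0.209 TPM. *Ifnb1*, the gene of interferon beta, had its highest value, 0.167 TPM, in Δ*Gnas* replicate 7, and was at 0.0671 TPM in WT replicate 4, at 0.0623 TPM in Δ*Gnas* replicate 3 and at 0 in the other 6 libraries. None passed the filter, so none entered the main test. Without a filter, edgeR's quasi-likelihood test called none of the 5 above 0, with adjusted p-values of 0.280 to 0.892.

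Receptors, kinases and STATs showed no called difference. *Ifnar1* was at 35.9 to 65.9 TPM in WT and 37.8 to 60.7 TPM in Δ*Gnas* DCs and *Ifnar2* at 108 to 124 TPM and 110 to 119 TPM, each with a log2 fold change of -0.02. *Ifngr1*, the ligand-binding chain for interferon gamma, was at 228, 206, 172, 263 and 182 TPM in WT and 127, 162, 156 and 123 TPM in Δ*Gnas* DCs (log2 fold change -0.56, SE 0.16, adjusted p = 0.0635), and 3 of 23 settings called it. *Ifngr2* was at 0.00, *Ifnlr1*, the chain for interferon lambda, at -0.32 and *Il10rb*, its partner, at 0.27 in log2 fold change. Among the kinases, *Jak1* was at -0.03, *Jak2* at -0.63 (adjusted p = 0.146) and *Tyk2* at -0.19.

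*Stat2*, a partner of IRF9, had a log2 fold change of 0.23 and *Irf3*, the factor that first induces interferon beta, of -0.20. Δ*Gnas* replicate 7 was the highest library for *Stat2*, by a small margin over Δ*Gnas* replicate 3. *Irf8*, a factor of DC development, had the lowest fold change of the pathway list, at 414, 289.5, 208, 188 and 205 TPM in WT and 231, 77.0, 116 and 118 TPM in Δ*Gnas* DCs, where Δ*Gnas* replicate 3 lay among the WT libraries. In edgeR the log2 fold change of Irf8 was -0.94 (SE 0.28, adjusted p = 0.0665), and 6 of 23 settings called it, among them edgeR's exact test (0.0193) and DESeq2 (0.00712). Of all 36 tested pathway genes, 4 were highest in Δ*Gnas* replicate 7, close to the 9.03% of all genes.

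Of those 36 genes, 2 were higher and 2 lower in Δ*Gnas* DCs, beside 5.39% and 4.14% of all genes. *Socs1*, the feedback inhibitor of JAK kinases, was at 18.1, 8.71, 10.2, 9.50 and 10.8 TPM in WT and 8.43, 5.11, 6.43 and 5.49 TPM in Δ*Gnas* DCs, with no overlap (log2 fold change -0.84, SE 0.19, adjusted p = 0.0232). *Ptpn6*, the phosphatase SHP-1, was at 142, 105, 96.1, 111 and 80.5 TPM in WT and 139, 167, 155 and 133 TPM in Δ*Gnas* DCs (0.50, SE 0.12, adjusted p = 0.0332), with an overlap between WT replicate 3 and Δ*Gnas* replicates 3 and 7 in TPM and none after TMM scaling. *Myd88*, the adaptor of most Toll-like receptors, was at 47.1, 31.4, 40.7, 41.0 and 29.3 TPM in WT and 50.2, 56.1, 52.6 and 53.9 TPM in Δ*Gnas* DCs (0.51, SE 0.11, adjusted p = 0.0196). Every Δ*Gnas* library exceeded every WT library for *Myd88*.

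*Traf6*, the ubiquitin ligase downstream of MyD88, was at 31.4, 30.8, 33.6, 32.2 and 18.6 TPM in WT and 23.5, 14.4, 23.3 and 15.9 TPM in Δ*Gnas* DCs, where WT replicate 7 lay among the Δ*Gnas* libraries (-0.60, SE 0.16, adjusted p = 0.0463). None of the 4 was called without Δ*Gnas* replicate 7, with adjusted p-values of 0.0837 for *Socs1*, 0.0652 for *Ptpn6*, 0.0653 for *Myd88* and 0.146 for *Traf6*, nor without Δ*Gnas* replicate 4 (0.0781, 0.0944, 0.0636 and 0.132). Without Δ*Gnas* replicate 6 neither the log2 fold change of Socs1 (0.0611) nor the log2 fold change of Ptpn6 (0.0945) nor the log2 fold change of Myd88 (0.0519) was called. Likewise the log2 fold change of Ptpn6 was not called without WT replicate 4, 5 or 7 (0.0643 to 0.0721), nor the log2 fold change of Traf6 without WT replicate 3, 4, 5 or 6 (0.0593 to 0.103). *Traf6* was also not called with the labelled sex as a covariate or with the filter of over 5 CPM. Of 23 settings, 18 called *Socs1*, 13 *Ptpn6*, 17 *Myd88* and 11 *Traf6*.

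**Figure D5:**
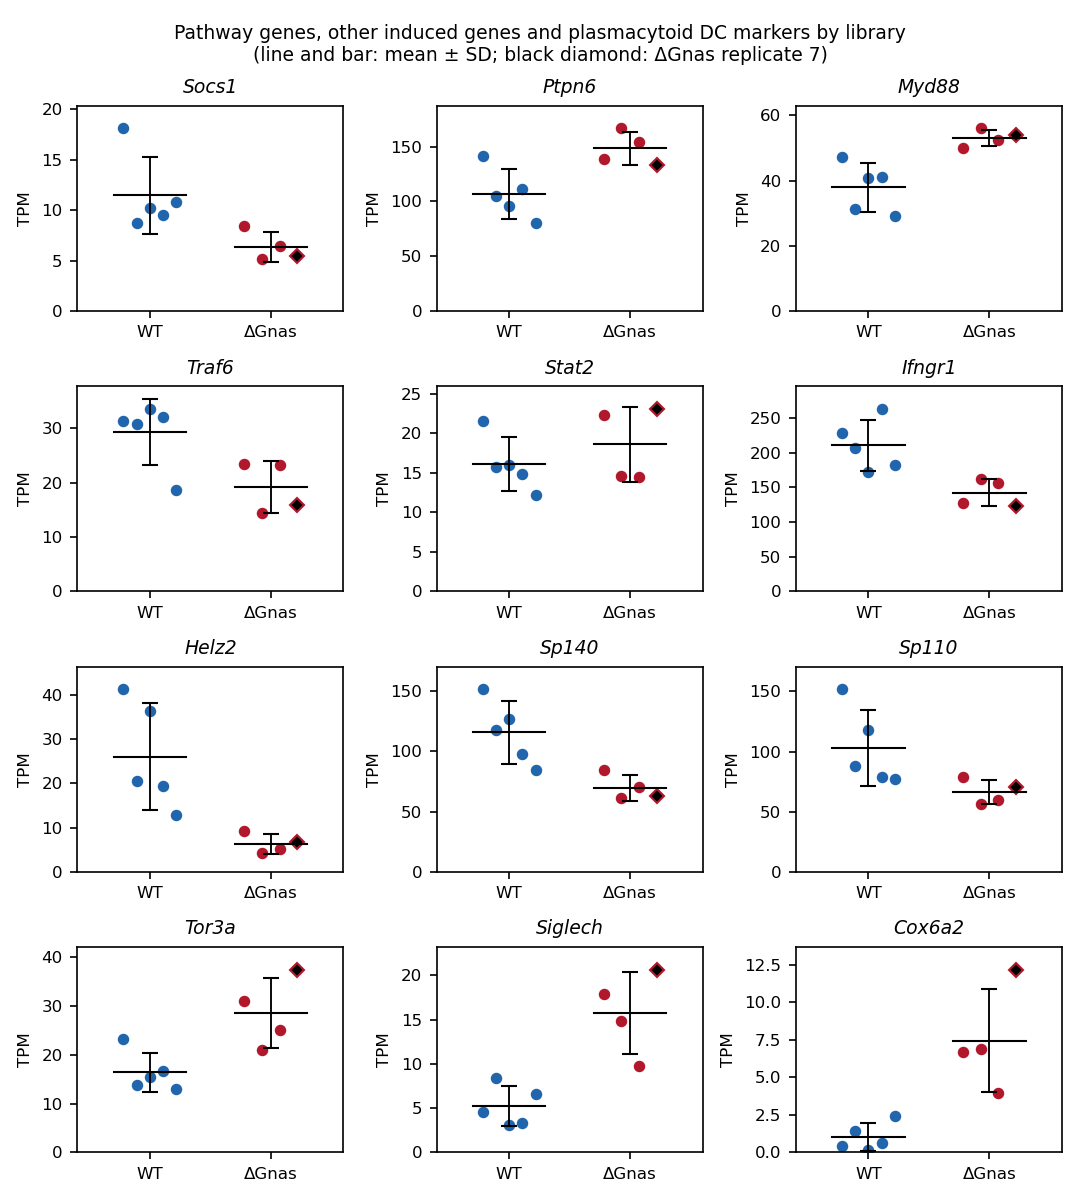
TPM of 6 genes of interferon induction and signalling, 4 other interferon-induced genes and 2 plasmacytoid DC markers in WT (blue, n = 5) and ΔGnas (red, n = 4) libraries, each point a library, with the mean as a line, the SD as a bar and ΔGnas replicate 7 as a black diamond. ΔGnas replicate 7 lies with the other ΔGnas libraries for Socs1, Ptpn6 and Myd88, and Helz2 is at 12.9 TPM or more in WT and 9.32 TPM or less in ΔGnas libraries.

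A second list of 53 interferon-induced genes outside the 45, of which 52 were found and 48 tested, was compared in the same way. In it 2 genes were higher and 3 lower in Δ*Gnas* DCs, beside 5.39% and 4.14% of all genes. The log2 fold change was positive for 27 of the 48, with a median of 0.08, and 20 genes were highest in Δ*Gnas* replicate 7, beside 9.03% of all genes. *Helz2*, a helicase and nuclear coactivator, had the lowest fold change of the list, at 41.2, 20.5, 36.2, 19.4 and 12.9 TPM in WT and 9.32, 4.21, 5.11 and 6.86 TPM in Δ*Gnas* DCs (log2 fold change -1.99, SE 0.30, adjusted p = 0.00442, called in 23 of 23 settings). It lies on chromosome 2, 6.88 Mb from *Gnas*, where 19 of 149 tested genes within 10 Mb, 12.8%, changed, beside 9.53% of all tested genes, and a part of the linked region in this difference was not tested. The nuclear body genes *Sp140* (-0.71, adjusted p = 0.00648) and *Sp110* (-0.61, adjusted p = 0.0377) were lower, and the ATPase *Tor3a* (0.82, adjusted p = 0.0144) was higher. *Sp140* and *Tor3a* were called in 23 of 23 settings and *Sp110* in 13. The log2 fold change of Sp110 was not called by limma-trend with either pseudocount (adjusted p of 0.122 and 0.126), with no filter (0.0521), without WT replicate 3, 4, 5 or 7 (0.0525 to 0.0734) or without Δ*Gnas* replicate 4, 6 or 7 (0.123, 0.114 and 0.0840).

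The other called rise was *Ifit1bl1*, a near copy of *Ifit1*. It was at 0.991, 0.997, 0.470, 0.870 and 0.868 TPM in WT and 1.62, 2.56, 1.32 and 5.38 TPM in Δ*Gnas* DCs (log2 fold change 1.72, SE 0.44, adjusted p = 0.0388). It was called in 9 of 22 settings, in none of those that left out a WT library, Δ*Gnas* replicate 4 or Δ*Gnas* replicate 7, and had an adjusted p of 0.115 without Δ*Gnas* replicate 7, where its change was 1.13.

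Of 7 markers of plasmacytoid DCs, 6 were tested and 2 were higher in Δ*Gnas* DCs, the lectin *Siglech* (log2 fold change 1.57, adjusted p = 0.0234) and the cytochrome oxidase subunit *Cox6a2* (2.78, adjusted p = 0.0365), and neither was called without Δ*Gnas* replicate 7 (0.0745 and 0.109). The 7 summed to 25.5, 35.0, 21.4, 19.8 and 25.6 TPM in WT and 59.8, 45.4, 34.7 and 65.6 TPM in Δ*Gnas* libraries, where Δ*Gnas* replicate 6 lay below WT replicate 4. The transcription factor *Tcf4* was at 7.11 to 11.1 TPM in WT and 7.59 to 9.28 TPM in Δ*Gnas* DCs. The part of plasmacytoid DCs in the level of interferon-stimulated genes was not tested. Eosinophil markers, 2 of 3 tested being higher in Δ*Gnas* DCs, summed to 10.7 to 23.4 TPM in WT and 76.9 to 142 TPM in Δ*Gnas* libraries, with Δ*Gnas* replicate 7 at 84.4 TPM.

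No interaction of genotype and sex passed for any of the 44 genes, with 0 at an unadjusted p under 0.05 in edgeR and 0 in limma-voom, beside 1.45% of all genes at an unadjusted p under 0.05 in edgeR. The fit held 2 Δ*Gnas* libraries of each sex and took WT replicate 7 as female, as labelled.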

How the data were processed

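Libraries were poly(A)-selected and stranded, and the authors quantified reads with Kallisto against an Ensembl mouse transcriptome (GRCm38) and summed transcripts to genes. The authors deposited TPM, per library, and estimated counts for the same genes. Each library's estimated counts equalled its TPM times 1 factor (34.3 to 49.4 counts per TPM), so they carry no gene length. Totals were 34252701 to 49427934 per library, which limits precision for genes near 1 TPM. Of 30620 features, 27 named dates and not genes; they held 0.0748 to 0.107% of counts and were left out.

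Estimated counts were rounded, filtered (over 1 CPM in at least 3 libraries), scaled by TMM and tested with edgeR 4.0.16 (R 4.3.3) by the quasi-likelihood test, unpaired, on all 9 libraries, with Benjamini-Hochberg adjustment over 11865 genes. The study also used edgeR, with its exact test. Groups came from the genotype labels. Scripts were tested on simulated data. The members and lists were chosen with earlier results of these data known. Values in every library are given for members with an adjusted p under 0.05, without overlap in CPM, among the 4 highest or 4 lowest fold changes or the 6 highest mean TPM, and for others where a pattern turned on them. Of the other lists, called genes were named, with the receptors, kinases, *Stat2* and *Irf3*, 1 gene of that rule is not reported here, and further ones were chosen after their values were seen. Alternatives were the exact test, DESeq2 1.42.0, limma 3.58.1 (voom, and trend on log2(TPM + 1) or log2(TPM + 0.1)), upper-quartile and DESeq2 factors, no filter or over 5 CPM, a replicate block, sex as covariate, robust estimation, counts rescaled by transcript length, removal of features above 1% of TPM, and each library left out. Replicate numbers were not taken as pairs, since no source says that they mark a shared batch and 1 of the 4 same-number correlations was below 0. P-values measure the spread between these libraries. Promoter windows came from RefSeq (GRCm38.p6) and gene coordinates from GENCODE (GRCm38).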

Additional observations from a re-analysis of the deposited data

Results flagged for a closer look

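In each genotype, the highest or lowest library was compared with its nearest neighbour for each of the 45 genes, by Dixon's ratio of that gap to the range. Of 90 groups, 17 passed the 95% limit, and 15 of the 17 were Δ*Gnas* groups. Chance flags about 1 in 20 groups, but genes of 1 library are not independent, so the number is no test. Δ*Gnas* replicate 7 was the high library in 14 of them, with *Dhx58* at 26.6, *Irf7* at 48.3, *Ifit2* at 13.8, *Ifit3* at 22.8, *Oas1a* at 64.6, *Oas2* at 10.7, *Oas3* at 19.5 and *Oasl1* at 13.02 TPM. The other 6 in that library were *Oasl2* at 50.7, *Rsad2* at 22.1, *Rtp4* at 32.2, *Isg15* at 43.4, *Lgals3bp* at 235 and *Ifi27l2a* at 434 TPM. In Δ*Gnas* replicate 4, *Ifitm1* stood above its group at 1649 TPM. In WT replicate 7, *Irf7* was high at 14.5 TPM and *Eif2ak2* low at 5.40 TPM.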

How the results depend on the processing

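*Samd9l* and *Trim25* were called in all 23 alternatives, and no single gene among those named reversed its direction while called. Members called higher numbered 1, against 3 by edgeR's exact test, 4 by DESeq2, 2 with sex as a covariate, 2 with counts rescaled by transcript length and 1 to 4 when a library was left out. Members called lower numbered 2, against 1 without a filter, 1 with sex as a covariate and 1 to 3 when a library was left out. Called pathway genes numbered 4, against 7 by DESeq2, 2 without a filter, 0 by limma-trend with either pseudocount and 0 to 6 when a library was left out. Other interferon-induced genes called numbered 5, against 8 by DESeq2, 3 without a filter, 3 by limma-trend with either pseudocount and 3 to 6 when a library was left out. The cause of these differences was not tested. With the replicate block 1 member was higher and 3 lower, *Bst2* being added (adjusted p = 0.0476), and over all genes 636 and 552. With it 3 pathway genes were called, *Socs1* among them and *Ptpn6*, *Myd88* and *Traf6* not, and 6 other interferon-induced genes. Deviations of libraries with the same number correlated at 0.29, -0.04, 0.25 and 0.16, where Δ*Gnas* replicates 3, 6 and 7 but not 4 correlated best with the WT library of their own number. Over all genes 640 were higher and 491 lower, against 952 and 818 by DESeq2, 299 and 220 without Δ*Gnas* replicate 7, 334 and 246 without Δ*Gnas* replicate 4, 338 and 273 without Δ*Gnas* replicate 6, 388 and 269 without WT replicate 4 and 800 and 786 without Δ*Gnas* replicate 3.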
